A study of Sus scrofa with 18 samples.

Results

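The genes described here are 38 genes of ribosome biogenesis, chosen by symbol for their known part in making ribosomes. All 38 were among the 27339 genes of the count table, and all 38 passed the filter on low counts with 12895 genes in all. Ribosomes are built mostly in the nucleolus, where RNA polymerase I copies the ribosomal DNA into a long precursor RNA. Small nucleolar ribonucleoproteins (snoRNPs) modify that precursor, and a long series of assembly factors fold it, cut it and add ribosomal proteins until both subunits leave the nucleus. The pathway takes up much of the energy of a dividing cell, MYC is a known activator of many of its genes, and a large nucleolus is an old mark of tumour cells.

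RNA was measured in 18 pig libraries, 3 for each of 6 groups. The double knock-in (DIK) line carries elements of the doxycycline-switched Tet-on system and of the phiC31 integrase, and the gene that the system drives is not named in the sources used here. DIK founders and wild-type (WT) pigs were given doxycycline from the age of 7 months. Tissue was taken 8 months later. The DIK tissue was tumour from 1 founder, labelled nose, mouth or scrotum, and the WT tissue was normal and labelled in the same way. All animals of the groups compared had thus received doxycycline, and the 9 DIK libraries stand for 1 animal. How many WT animals there were is not known from the labels. A p-value here therefore measures the spread among the libraries alone, and that spread may be technical.

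Total counts ran from 418665 in WT nose replicate 1 to 5041470 in WT nose replicate 3, so that 3 counts corresponded to between 0.483 and 5.76 CPM, that is, counts put on a common scale by library size and TMM factors. The homeobox genes of posterior body regions went against the tissue labels of the WT groups: their summed level was 42.2 to 70.8 CPM in WT mouth, 3.36 to 6.52 CPM in WT scrotum and at most 3.42 CPM in WT nose. In the DIK groups this sum was 11.7 to 20.4 CPM at mouth and 0.625 to 4.19 CPM at scrotum. Skeletal muscle genes made up 12.4% to 14.8% of the counts of WT nose and 14.7% to 29.6% of those of WT scrotum, but at most 1.19% of those of WT mouth. Groups are kept as labelled, and "at the mouth label" means no more than that. Keratinocyte markers (13 genes measured of 14, KRT14 not in the table) summed to 28056 to 73607 CPM in the 9 DIK libraries, led by KRT5, SFN and DSC3. WT scrotum replicate 2 stood apart from its group with 15545 CPM of keratinocyte markers, against 1225 and 128 CPM in the others, and with 660 CPM of leukocyte markers against 55.8 and 74.7 CPM. WT mouth replicate 1 stood apart likewise, with 1661 CPM of keratinocyte markers against 154 and 179 CPM, and 309 CPM of leukocyte markers against 69.7 and 76.3 CPM. The leukocyte sum rested largely on LYZ, with a mean of 208 of 263 CPM in WT scrotum and 86.9 of 152 CPM in WT mouth. PTPRC had means of 4.92 and 2.30 CPM there, and 7 of the 15 leukocyte markers passed the filter on low counts.

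Between tumour and normal tissue, 12 of the 38 genes were called higher in DIK at the nose label, 12 at the mouth label and 15 at the scrotum label, and 0 were called lower at any of the 3 (edgeR quasi-likelihood test, adjusted p under 0.05 over all genes). These are 31.6%, 31.6% and 39.5% of the 38 genes. Of all genes tested, 21.9% were called higher and 20.1% lower at nose, 22.7% and 24.3% at mouth, and 19.4% and 24% at scrotum. At an unadjusted p under 0.05, edgeR counted 0, 0 and 2 of the 38 genes as lower, DESeq2 called 0, 0 and 0, and limma-voom 0, 1 and 1. The median log2 difference of the 38 genes was 0.53 at nose, 0.42 at mouth and 0.56 at scrotum, beside 0.034, -0.038 and -0.094 for all genes. A positive difference was found for 33, 30 and 31 of the 38 genes, against 51%, 48.6% and 47.1% of all genes.

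The summed level of the 38 genes was 870 to 956 CPM in DIK nose and 516 to 568 CPM in WT nose. It was 901 to 1070 CPM in DIK mouth and 603 to 725 CPM in WT mouth, and 1185 to 1346 CPM in DIK scrotum and 528 to 677 CPM in WT scrotum. The lowest of the 9 DIK libraries thus lay above the highest of the 9 WT libraries. This also held without NCL and NPM1, at 612 to 783 CPM in DIK and 414 to 534 CPM in WT. The highest sums of the 38 genes at the WT mouth and scrotum labels were those of WT mouth replicate 1 and WT scrotum replicate 2. WT mouth replicate 1 held the highest WT mouth value for 28 of the 38 genes (35.4% of all genes), and WT scrotum replicate 2 the highest WT scrotum value for 24 (38.1% of all genes). Keratinocyte and leukocyte markers were also highest in these libraries within their groups. In WT nose, replicate 1 had the most keratinocyte markers (1359 CPM). Replicate 2 had the highest sum there and the most leukocyte markers (81.1 CPM). WT scrotum replicate 2 had more leukocyte markers (660 CPM) than any DIK library (619 CPM at most, in DIK nose replicate 1), with a lower sum of the 38 genes. These leukocyte sums differed in make-up. In DIK nose the mean of 549 CPM held 256 CPM of LYZ and 240 CPM of JCHAIN, and in WT scrotum LYZ made up most. The part of the keratinocyte and leukocyte markers in the result was not tested. Without WT nose replicate 1, WT mouth replicate 1 and WT scrotum replicate 2 together, a setting chosen after seeing the data, 12, 14 and 17 of the 38 genes were called higher and 0, 0 and 1 lower. In bulk tissue, fewer cells of a type and less RNA per cell cannot be told apart.

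**Figure D1:**
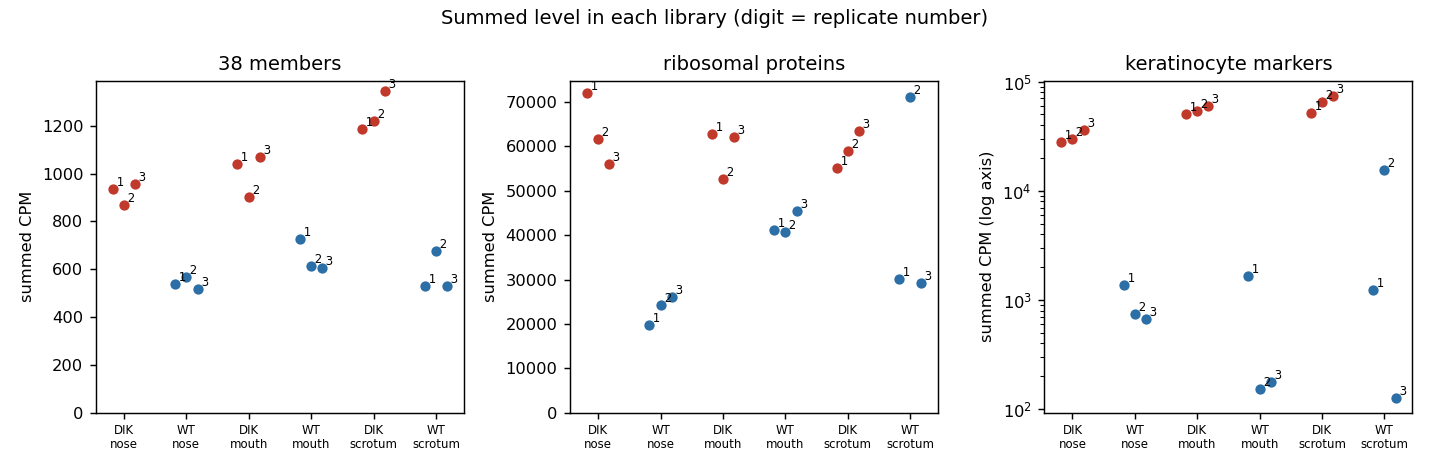
Summed level (CPM) of the 38 genes, of the ribosomal proteins and of the keratinocyte markers (log axis) in each of the 18 libraries, red for DIK and blue for WT, with the replicate number beside each point. The 9 DIK libraries lie above the 9 WT libraries for the 38 genes, while WT scrotum replicate 2 reaches 71166 CPM of ribosomal proteins and 15545 CPM of keratinocyte markers.

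Of the 38 genes, 8 were called higher in DIK at all 3 labels, 4 at 2 labels, 7 at 1 label and 19 at none. Of all genes tested, 9% were called higher at all 3 labels, 10.7% at 2, 15.6% at 1 and 64.7% at none, so that the numbers of members at 1 and at 2 labels lay near those of all genes. The 8 genes were NPM1 and DDX21 of the nucleolar proteins, FBL, NOP56 and DKC1 of the snoRNP proteins, WDR43 of the small subunit factors, and MRTO4 and DDX18 of the large subunit factors. All 9 DIK libraries lay above all 9 WT libraries for 8 genes (8.5% of all genes tested), namely NPM1, FBL, NOP56, WDR43, POLR1B, MRTO4, DDX21 and DDX18, and below them for 0 genes (7.26% of all genes tested). Within a label, the 3 DIK libraries lay above the 3 WT libraries for 18 genes at nose, 16 at mouth and 17 at scrotum (29.2%, 29% and 24% of all genes), and below them for 1, 1 and 2 (25.1%, 29.7% and 27.2%).

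**Figure D2:**
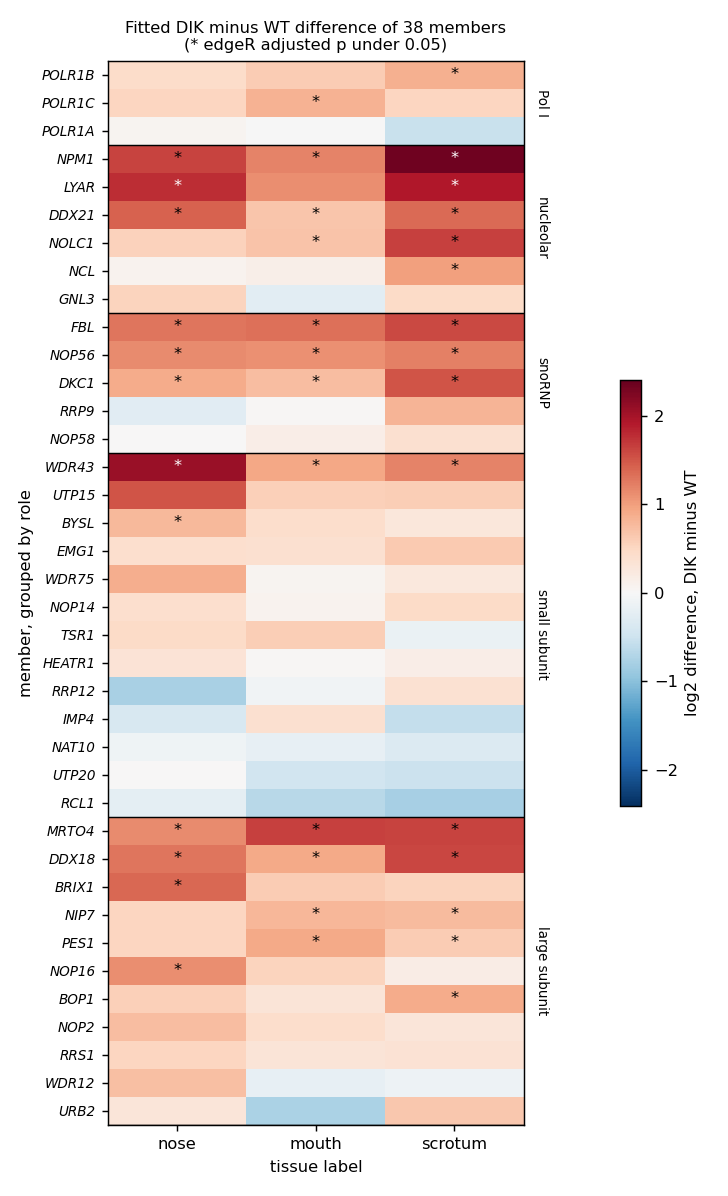
Fitted log2 difference of DIK minus WT (colour, red for higher in DIK and blue for lower) of the 38 genes in rows, grouped by role, at the 3 tissue labels in columns; a star marks an edgeR adjusted p under 0.05. Every star stands on a positive difference, 12 at nose, 12 at mouth and 15 at scrotum, and WDR43 is the 1 small subunit factor with a star in all 3 columns.

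Of the 3 genes for RNA polymerase I, the enzyme that starts the pathway, 0 were called at nose, 1 at mouth and 1 at scrotum. Of all genes, 21.9%, 22.7% and 19.4% were called higher. POLR1B is a large core subunit of the enzyme, with POLR1A the largest. POLR1B at nose was 13.4, 12.1 and 9.83 CPM in DIK and 7.68, 9.13 and 8.76 CPM in WT. POLR1B at mouth was 17.7, 11.7 and 11.7 CPM in DIK and 9.82, 9.06 and 7.87 CPM in WT. POLR1B at scrotum was 14.8, 13.2 and 10.001 CPM in DIK and 7.97, 5.502 and 8.03 CPM in WT. The 3 DIK libraries lay above the 3 WT libraries at each label, with the lowest DIK value of 9.83 CPM next to the highest WT value of 9.82 CPM. Its fitted log2 difference was 0.43 at nose (adjusted p = 0.237), 0.61 at mouth (adjusted p = 0.0659) and 0.85 ± 0.28 (SE, adjusted p = 0.0192) at scrotum. That scrotum call was lost without DIK scrotum replicate 1, DIK scrotum replicate 2 or WT scrotum replicate 2. POLR1C, a subunit shared with RNA polymerase III, was higher at mouth by 0.83 ± 0.30 (SE, adjusted p = 0.028), a call lost when any 1 of the 3 DIK mouth libraries or WT mouth replicates 2 or 3 was left out. POLR1A was at 1.94 to 7.64 CPM over all 18 libraries and passed at no label.

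Among the 6 nucleolar proteins, 3 were called higher at nose, 3 at mouth and 5 at scrotum (21.9%, 22.7% and 19.4% of all genes). NPM1 (nucleophosmin) is an abundant nucleolar chaperone of ribosomal proteins and histones. NPM1 at nose was 191, 189.6 and 159.7 CPM in DIK and 65.3, 50.4 and 61.5 CPM in WT. NPM1 at mouth was 292, 215 and 292 CPM in DIK and 139, 105 and 106 CPM in WT. NPM1 at scrotum was 347, 386 and 481 CPM in DIK and 64.2, 106 and 71.5 CPM in WT. No DIK library overlapped a WT library, and the 3 DIK scrotum libraries were the highest of the 18. For NPM1 the log2 difference was 1.61 ± 0.28 (SE, adjusted p = 0.00017) at nose, 1.19 ± 0.27 (SE, adjusted p = 0.00146) at mouth and 2.33 ± 0.28 (SE, adjusted p = 3.36e-06) at scrotum, the largest of the 38 genes at that label. NPM1 is known in mammals to have many near-identical copies, so its counts are uncertain where reads could be split among them.

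DDX21 is an RNA helicase of the nucleolus that binds the precursor RNA and snoRNAs. DDX21 at nose was 37.9, 46.3 and 36.3 CPM in DIK and 15.4, 15.7 and 14.1 CPM in WT. DDX21 at mouth was 39.2, 32.1 and 42.6 CPM in DIK and 25.1, 24.2 and 22.03 CPM in WT. DDX21 at scrotum was 42.5, 30.4 and 31.9 CPM in DIK and 8.39, 20.6 and 11.3 CPM in WT. The groups did not overlap at any label, and the WT mouth libraries were the highest WT libraries. For DDX21 the log2 difference was 1.42 ± 0.29 (SE, adjusted p = 0.000842) at nose, 0.67 ± 0.27 (SE, adjusted p = 0.0475) at mouth and 1.36 ± 0.28 (SE, adjusted p = 0.000768) at scrotum. Its mouth call stood near the threshold and was lost in 13 of the 18 fits that left out 1 library; it held without DIK mouth replicate 2, without DIK scrotum replicate 1 and without any 1 WT scrotum library.

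NOLC1, a chaperone of snoRNPs, differed most at the scrotum label. NOLC1 at nose was 37.6, 34.7 and 45.6 CPM in DIK and 24.9, 34.3 and 20.9 CPM in WT. NOLC1 at mouth was 43.98, 44.7 and 44.8 CPM in DIK and 34.8, 27.4 and 20.7 CPM in WT. NOLC1 at scrotum was 60.6, 55.8 and 63.1 CPM in DIK and 13.01, 19.4 and 24.3 CPM in WT. The 3 DIK libraries lay above the 3 WT libraries at each label, by a narrow margin at nose, where the test was not passed. The log2 difference was 0.55 at nose (adjusted p = 0.111), 0.68 ± 0.26 (SE, adjusted p = 0.0378) at mouth and 1.65 ± 0.27 (SE, adjusted p = 8.58e-05) at scrotum. The mouth call was lost without any 1 of the 3 DIK mouth libraries or WT mouth replicates 2 or 3.

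NCL (nucleolin), which binds the precursor RNA, was higher at the scrotum label alone by the test. NCL at nose was 47.1, 46.6 and 56.5 CPM in DIK and 51.8, 51.5 and 40.2 CPM in WT. NCL at mouth was 60.7, 73.4 and 79.4 CPM in DIK and 52.5, 69.5 and 72.7 CPM in WT. NCL at scrotum was 67.6, 74.4 and 81.9 CPM in DIK and 34.4, 43.8 and 34.4 CPM in WT. The groups overlapped at nose and at mouth and did not at scrotum, where the 3 WT values and that of WT nose replicate 3 were the 4 lowest of the series. The log2 difference was 0.076 at nose (adjusted p = 0.821) and 0.13 at mouth (adjusted p = 0.647), both of which turned negative with library size alone as the scaling. At scrotum it was 0.99 ± 0.23 (SE, adjusted p = 0.00186), and the call held in all 18 fits that left out 1 library.

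LYAR, a nucleolar zinc finger protein, had few counts, with 0 in WT nose replicate 1, the shallowest library, which allows up to 5.76 CPM there. LYAR at nose was 5.83, 5.12 and 5.73 CPM in DIK and 0, 2.19 and 1.496 CPM in WT. LYAR at mouth was 3.48, 2.19 and 8.26 CPM in DIK and 1.61, 2.44 and 2.36 CPM in WT. LYAR at scrotum was 6.99, 11.4 and 3.13 CPM in DIK and 0.839, 2.85 and 1.76 CPM in WT. The groups overlapped at mouth only, where DIK replicate 2 lay below WT replicates 2 and 3. For LYAR the log2 difference was 1.77 ± 0.61 (SE, adjusted p = 0.0268) at nose and 1.92 ± 0.55 (SE, adjusted p = 0.00882) at scrotum, and 1.12 at mouth (adjusted p = 0.0905). The nose call was lost without DIK nose replicates 1 or 3 or WT nose replicates 1 or 3, and the scrotum call without DIK scrotum replicate 2. GNL3 (nucleostemin), a nucleolar GTP-binding protein, was called at no label, with differences of 0.53, -0.25 and 0.45.

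**Figure D3:**
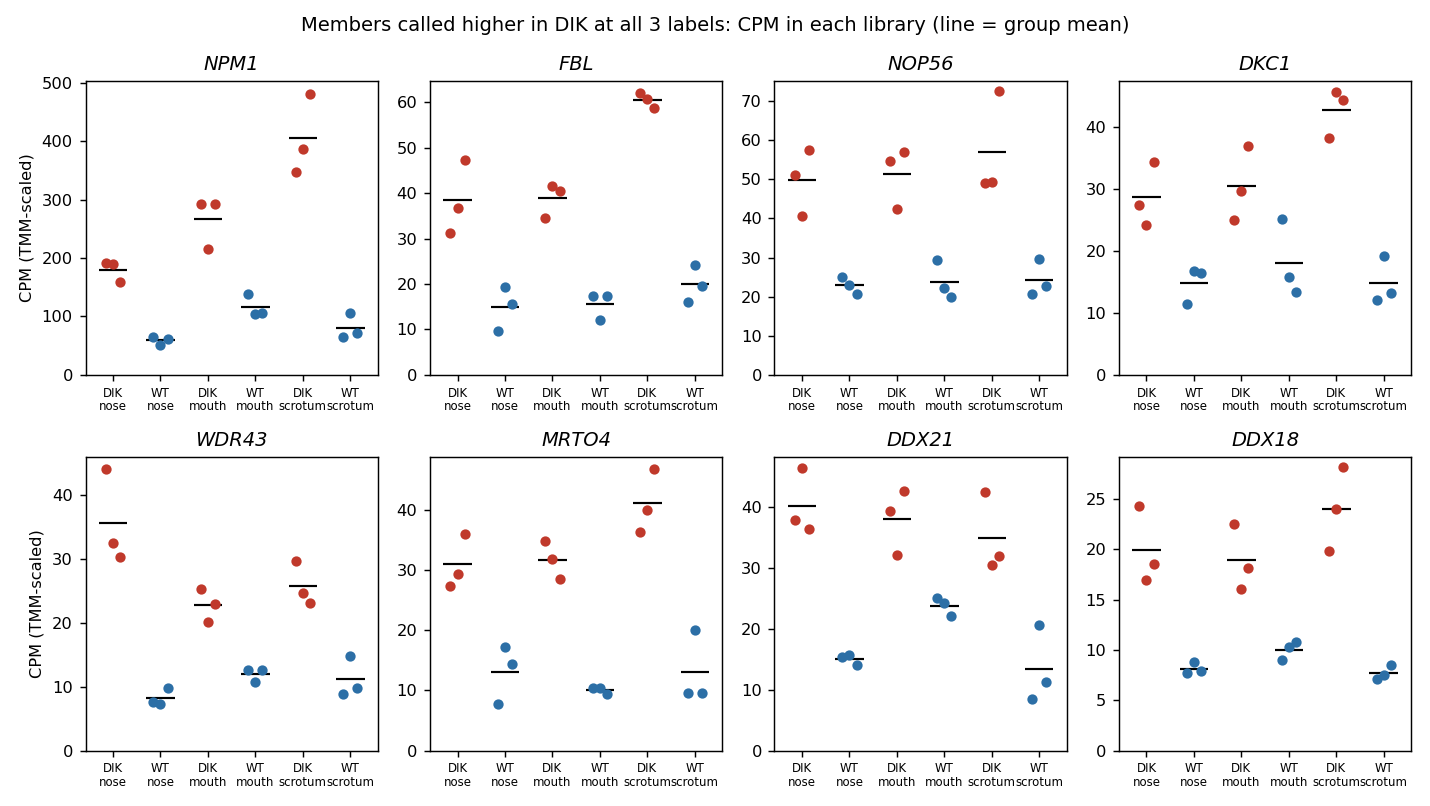
Level (CPM, TMM-scaled) in each library of the 8 genes called higher in DIK at all 3 labels, red for DIK and blue for WT, with a line at the mean of each group of 3. Every DIK point lies above every WT point except for DKC1, where WT mouth replicate 1 (25.1 CPM) overlaps the DIK range.

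Of the 5 snoRNP proteins, the same 3 were called higher at each label: FBL, NOP56 and DKC1. The shares of all genes called higher were 21.9%, 22.7% and 19.4% at nose, mouth and scrotum. FBL (fibrillarin) is the methyltransferase of the box C/D snoRNPs, which methylate ribose in the precursor RNA. FBL at nose was 31.3, 36.6 and 47.2 CPM in DIK and 9.596, 19.4 and 15.6 CPM in WT. FBL at mouth was 34.5, 41.5 and 40.5 CPM in DIK and 17.4, 12.03 and 17.3 CPM in WT. FBL at scrotum was 62.04, 60.8 and 58.8 CPM in DIK and 15.9, 24.2 and 19.6 CPM in WT. The lowest DIK value, in nose replicate 1, was above the highest WT value, in scrotum replicate 2. For FBL the log2 difference was 1.28 ± 0.27 (SE, adjusted p = 0.000976) at nose, 1.32 ± 0.26 (SE, adjusted p = 0.000425) at mouth and 1.59 ± 0.26 (SE, adjusted p = 7.89e-05) at scrotum.

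NOP56 and NOP58 are the paired scaffold proteins of the same box C/D particle, and they differed from each other in these libraries. NOP56 at nose was 51.2, 40.7 and 57.6 CPM in DIK and 24.9, 23.001 and 20.7 CPM in WT. NOP56 at mouth was 54.7, 42.5 and 57.04 CPM in DIK and 29.5, 22.1 and 19.9 CPM in WT. NOP56 at scrotum was 49.2, 49.3 and 72.5 CPM in DIK and 20.6, 29.5 and 22.8 CPM in WT. No DIK library overlapped a WT library. The log2 difference of NOP56 was 1.14 ± 0.26 (SE, adjusted p = 0.00191) at nose, 1.105 ± 0.25 (SE, adjusted p = 0.00142) at mouth and 1.22 ± 0.25 (SE, adjusted p = 0.000768) at scrotum. NOP58 at nose was 33.7, 34.7 and 31.1 CPM in DIK and 36.5, 31.4 and 32.5 CPM in WT. NOP58 at mouth was 39.9, 33.04 and 34.7 CPM in DIK and 33.96, 31.2 and 30.95 CPM in WT. NOP58 at scrotum was 32.1, 32.9 and 46.3 CPM in DIK and 28.95, 29.8 and 25.6 CPM in WT. The groups overlapped at nose and at mouth, and at scrotum all 3 DIK libraries lay above the WT libraries, with DIK replicate 3 the highest. The log2 difference of NOP58 was 0.0036 ± 0.21 (SE, adjusted p = 0.992) at nose, 0.16 ± 0.21 (SE, adjusted p = 0.546) at mouth and 0.39 ± 0.21 (SE, adjusted p = 0.139) at scrotum, with a sign that changed with the scaling at nose and mouth. NOP58 thus passed at no label where its partner passed at all 3, and the difference between the genes was not itself tested.

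DKC1 (dyskerin) is the pseudouridine synthase of the box H/ACA snoRNPs. DKC1 at nose was 27.4, 24.2 and 34.4 CPM in DIK and 11.5, 16.8 and 16.5 CPM in WT. DKC1 at mouth was 24.996, 29.6 and 37.1 CPM in DIK and 25.1, 15.9 and 13.4 CPM in WT. DKC1 at scrotum was 38.3, 45.8 and 44.4 CPM in DIK and 12.2, 19.2 and 13.3 CPM in WT. WT mouth replicate 1 reached the level of DIK mouth replicate 1, and the groups did not overlap at nose or scrotum. For DKC1 the log2 difference was 0.88 ± 0.29 (SE, adjusted p = 0.0191) at nose, 0.75 ± 0.27 (SE, adjusted p = 0.0296) at mouth and 1.51 ± 0.28 (SE, adjusted p = 0.000283) at scrotum. Its nose call was lost without DIK nose replicate 3 or WT nose replicate 1, and its mouth call without DIK mouth replicates 2 or 3 or WT mouth replicates 2 or 3. RRP9, a protein of the snoRNP that takes part in the early cuts of the precursor, was called at no label, with differences of -0.27, 0.034 and 0.82.

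Of the 13 small subunit factors, 2 were called higher at nose, 1 at mouth and 1 at scrotum. These are smaller shares than the 21.9%, 22.7% and 19.4% of all genes. WDR43, a protein of the subcomplex that joins the precursor RNA first, was the one called at all 3 labels. WDR43 at nose was 44.2, 32.6 and 30.3 CPM in DIK and 7.68, 7.302 and 9.83 CPM in WT. WDR43 at mouth was 25.3, 20.2 and 22.9 CPM in DIK and 12.6, 10.8 and 12.6 CPM in WT. WDR43 at scrotum was 29.6, 24.7 and 23.1 CPM in DIK and 8.81, 14.9 and 9.78 CPM in WT. The groups did not overlap, and the 3 DIK nose libraries were the highest of the 18. For WDR43 the log2 difference was 2.07 ± 0.28 (SE, adjusted p = 1.41e-05) at nose, the largest of the 38 genes at that label, 0.93 ± 0.25 (SE, adjusted p = 0.00527) at mouth and 1.196 ± 0.26 (SE, adjusted p = 0.00101) at scrotum.

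The other members of the WDR43 subcomplex in the list, UTP15, WDR75 and HEATR1, were called at no label. UTP15 at nose was 3.16, 6.73 and 3.55 CPM in DIK and 0, 2.92 and 0.855 CPM in WT, a difference of 1.503 (adjusted p = 0.106) from few counts, 0 of them in WT nose replicate 1. WDR75 differed by 0.87, 0.07 and 0.25 at nose, mouth and scrotum, and HEATR1 by 0.32, 0.023 and 0.16. BYSL (bystin), which binds the maturing small subunit, was higher at nose by 0.78 ± 0.27 (SE, adjusted p = 0.0242). That call was lost without DIK nose replicates 1 or 3 or WT nose replicates 1 or 2. EMG1, a methyltransferase of the small subunit RNA, was called at no single label, but averaged over the 3 labels it was higher by 0.48 ± 0.15 (SE, adjusted p = 0.0102).

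RCL1, a factor for an early cut of the precursor, was the 1 gene of the 38 that edgeR called lower in DIK, in the average over the 3 labels. RCL1 at nose was 5.83, 5.65 and 6.28 CPM in DIK and 13.4, 5.48 and 5.98 CPM in WT. RCL1 at mouth was 5.695, 3.89 and 4.798 CPM in DIK and 8.69, 7.49 and 6.56 CPM in WT. RCL1 at scrotum was 7.27, 5.36 and 3.75 CPM in DIK and 11.3, 7.54 and 11.04 CPM in WT. DIK lay below WT without overlap at mouth and at scrotum, and WT nose replicate 1 carried the difference at nose. The averaged log2 difference was -0.57 ± 0.20 (SE, adjusted p = 0.0166), and at the single labels it was -0.24 (adjusted p = 0.817), -0.67 (adjusted p = 0.1) and -0.803 (adjusted p = 0.0609). Without WT nose replicate 1 the nose difference was 0.041. NOP14, TSR1, IMP4, NAT10, UTP20 and RRP12 passed neither at a label nor in the average, and their differences ranged from -0.78 (RRP12 at nose) to 0.59 (TSR1 at mouth). IMP4 at nose was 19.1 to 23.3 CPM in DIK and 25.9 to 30.7 CPM in WT. IMP4 at scrotum was 14.3 to 19.4 CPM in DIK and 21.8 to 28.8 CPM in WT. DIK thus lay below WT without overlap at these labels, while at mouth the groups overlapped and the DIK mean was the higher.

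The large subunit factors had 4 calls at nose, 4 at mouth and 5 at scrotum among 11 genes, all higher (21.9%, 22.7% and 19.4% of all genes). MRTO4 helps to place the ribosomal stalk on the large subunit. MRTO4 at nose was 27.4, 29.3 and 36.04 CPM in DIK and 7.68, 17.2 and 14.3 CPM in WT. MRTO4 at mouth was 34.8, 31.8 and 28.5 CPM in DIK and 10.5, 10.5 and 9.44 CPM in WT. MRTO4 at scrotum was 36.3, 40.04 and 46.9 CPM in DIK and 9.65, 19.97 and 9.53 CPM in WT. The groups did not overlap, and WT scrotum replicate 2 was the highest WT library. For MRTO4 the log2 difference was 1.13 ± 0.30 (SE, adjusted p = 0.0054) at nose, 1.64 ± 0.29 (SE, adjusted p = 0.000182) at mouth, the largest of the 38 genes at that label, and 1.63 ± 0.29 (SE, adjusted p = 0.000211) at scrotum.

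DDX18 is an RNA helicase of the same assembly line. DDX18 at nose was 24.3, 16.96 and 18.6 CPM in DIK and 7.68, 8.76 and 7.91 CPM in WT. DDX18 at mouth was 22.5, 16.03 and 18.1 CPM in DIK and 9.01, 10.3 and 10.8 CPM in WT. DDX18 at scrotum was 19.8, 23.95 and 28.1 CPM in DIK and 7.13, 7.54 and 8.53 CPM in WT. The groups did not overlap, and WT scrotum replicate 2 did not stand apart from its group for this gene. For DDX18 the log2 difference was 1.28 ± 0.26 (SE, adjusted p = 0.000788) at nose, 0.91 ± 0.24 (SE, adjusted p = 0.00418) at mouth and 1.61 ± 0.25 (SE, adjusted p = 4.86e-05) at scrotum, and all 3 calls held in the 18 fits that left out 1 library.

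PES1, BOP1 and WDR12 form a complex needed to process the large subunit RNA. PES1 was higher at mouth by 0.91 ± 0.24 (SE, adjusted p = 0.0048) and at scrotum by 0.61 ± 0.24 (SE, adjusted p = 0.0492), and differed by 0.52 at nose (adjusted p = 0.103). BOP1 was higher at scrotum by 0.89 ± 0.29 (SE, adjusted p = 0.0191), and differed by 0.58 at nose and 0.31 at mouth. WDR12 was called at no label, with differences of 0.72 at nose, -0.195 at mouth and -0.11 at scrotum. None of the 3 partners was called at nose. The PES1 call at scrotum was lost in 10 of the 18 fits that left out 1 library; it held without any 1 DIK nose library, WT nose replicates 2 or 3, WT mouth replicates 1 or 3, or WT scrotum replicate 2. The BOP1 call was lost without DIK scrotum replicates 2 or 3 or WT scrotum replicate 1. PES1 at mouth was 32.9, 37.9 and 43.98 CPM in DIK and 25.3, 19.5 and 16.3 CPM in WT, and the groups did not overlap.

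BRIX1, an early factor of the large subunit, was higher at nose by 1.39 ± 0.38 (SE, adjusted p = 0.00638). BRIX1 at nose was 13.1, 16.96 and 17.7 CPM in DIK and 1.92, 6.21 and 7.27 CPM in WT, with all 3 WT libraries below the DIK libraries. NOP16 was higher at nose by 1.11 ± 0.32 (SE, adjusted p = 0.00945), a call lost without WT nose replicate 3. NIP7 was higher at mouth by 0.803 ± 0.28 (SE, adjusted p = 0.0255) and at scrotum by 0.77 ± 0.29 (SE, adjusted p = 0.0363). Its mouth call was lost without DIK mouth replicates 1 or 3 or WT mouth replicate 2, and its scrotum call without any 1 of the 3 DIK scrotum libraries or WT scrotum replicates 1 or 3. NOP2, a methyltransferase of the large subunit RNA, was called only in the average, at 0.49 ± 0.20 (SE, adjusted p = 0.0447), a call lost in 11 of the 18 fits that left out 1 library and held without DIK nose replicates 1 or 2, WT nose replicate 2, WT mouth replicate 1, DIK scrotum replicate 3, or WT scrotum replicates 2 or 3. RRS1 and URB2 passed neither at a label nor in the average, and URB2 ranged from -0.76 at mouth to 0.65 at scrotum.

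**Figure D4:**
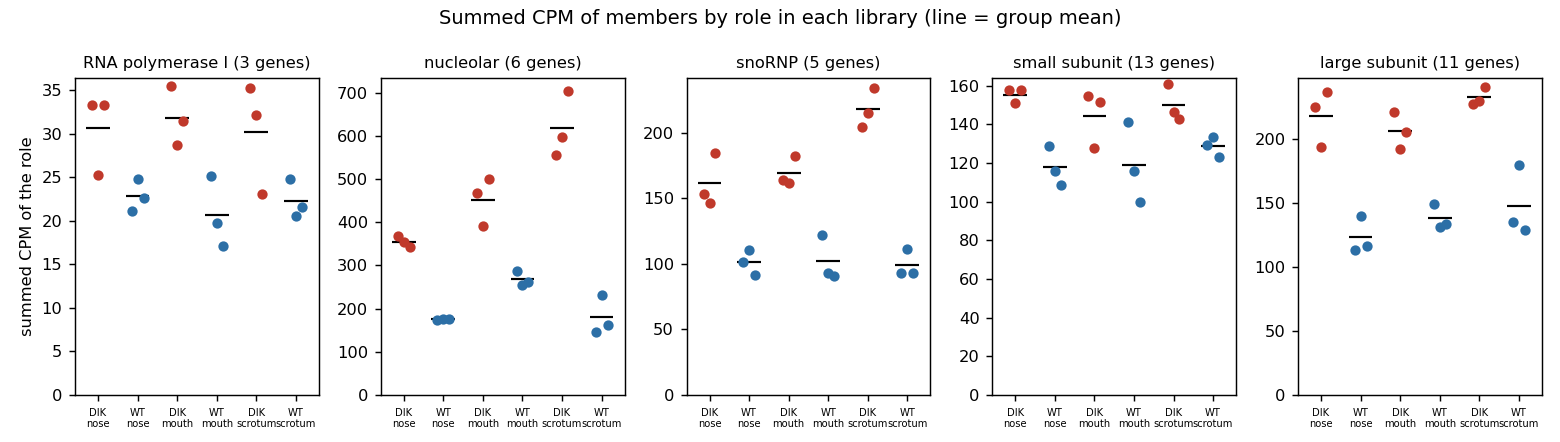
Summed level (CPM) of the members of each role in each library, red for DIK and blue for WT, with a line at the mean of each group of 3. The nucleolar sum separates DIK from WT the most at scrotum, at 557 to 705 CPM in DIK and 146 to 231 CPM in WT. Most of that difference is NPM1, with means of 405 CPM in DIK scrotum and 80.4 CPM in WT scrotum. The small subunit sum lies at 128 to 161 CPM in DIK and 99.7 to 141 CPM in WT.

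Averaged over the 3 labels, 21 of the 38 genes were called higher and 1, RCL1, lower (31.2% and 33% of all genes tested). By role these were 2 of 3 genes for RNA polymerase I, 5 of 6 nucleolar proteins, 3 of 5 snoRNP proteins, 3 of 13 small subunit factors and 8 of 11 large subunit factors. Leaving out each of the 18 libraries in turn kept 21 of the 22 calls in every fit, the exception being NOP2. At the single labels the calls kept in every such fit were 8 of 12 at nose, 7 of 12 at mouth and 10 of 15 at scrotum. The count at mouth was 7 without DIK mouth replicate 3 or without WT mouth replicate 2. With library size alone as the scaling it was 5 higher and 1 lower, where 36.1% of all called genes were higher in place of 48.2%.

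Whether the tumour-to-normal difference itself varied among labels was tested by interaction terms, and 0 of the 38 genes passed in any of the 3 pairs of labels (edgeR adjusted p under 0.05; 8.6% of all genes passed for mouth against nose, 7.65% for scrotum against nose and 13.1% for scrotum against mouth). At an unadjusted p under 0.05 there were 3, 5 and 5 genes. DESeq2 called 0, 2 and 2, and limma-voom 2, 2 and 4. The lowest adjusted p belonged to NPM1, whose difference was larger at scrotum than at mouth by 1.14 ± 0.38 (SE, adjusted p = 0.0532), and to WDR43, whose difference was smaller at mouth than at nose by -1.14 ± 0.37 (SE, adjusted p = 0.06). NOLC1 was next, with a difference larger at scrotum than at nose by 1.1000 ± 0.38 (SE, adjusted p = 0.0795). A p that misses the threshold does not show that the labels were alike. Leaving out WT mouth replicate 1 or WT scrotum replicate 2 gave 1 call for mouth against nose and 2 for scrotum against mouth, and leaving out WT scrotum replicate 3 gave 1 call in each pair with scrotum.

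Between normal tissues, NPM1 was higher in WT mouth than in WT nose by 0.99 ± 0.27 (SE, adjusted p = 0.0141), the 1 call in that pair (19.8% of all genes). NCL and DDX21 were lower in WT scrotum than in WT mouth by -0.79 ± 0.23 (SE, adjusted p = 0.0165) and -0.801 ± 0.28 (SE, adjusted p = 0.0431), the 2 calls there (23% of all genes). Both were lost in several fits that left out 1 library, with 0 calls without WT mouth replicates 2 or 3 or WT scrotum replicates 1 or 3. Between WT scrotum and WT nose edgeR called 0 of the 38 genes (6.05% of all genes), 2 had an unadjusted p under 0.05, and DESeq2 and limma-voom called 0. Between tumours, NPM1 was higher in DIK scrotum than in DIK nose by 1.17 ± 0.27 (SE, adjusted p = 0.0148), the 1 call in that pair (5.84% of all genes), lost without DIK nose replicates 1 or 3 or DIK scrotum replicates 2 or 3. The NPM1 call between WT labels was lost without WT nose replicate 2. DIK mouth against DIK nose gave 0 calls (1.54% of all genes; 4 genes at an unadjusted p under 0.05; DESeq2 0, limma-voom 1). DIK scrotum against DIK mouth likewise gave 0 (2.88% of all genes; 3 genes at an unadjusted p under 0.05; DESeq2 0, limma-voom 2).

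Other genes of the pathway were listed by known role, with earlier results of these data known. Of 149 tested, 28 were called higher and 3 lower at nose (18.8% higher), 32 and 7 at mouth (21.5%), and 34 and 3 at scrotum (22.8%). These shares lay below the 21.9% and 22.7% of all genes called higher at nose and mouth, and above the 19.4% at scrotum. Called lower were 2.01%, 4.7% and 2.01%, against 20.1%, 24.3% and 24% of all genes. The median log2 difference was 0.43, 0.29 and 0.43, beside 0.034, -0.038 and -0.094 for all genes. Averaged over the 3 labels, 65 were called higher and 10 lower. That is 43.6% and 6.71%, against 31.2% and 33% of all genes. The other large subunit factors had 15 of 61 higher at nose, 16 at mouth and 16 at scrotum, with 1, 4 and 2 lower. Of the other small subunit factors, 8, 8 and 11 of 49 were higher and 0 lower at each label. The RNA exosome, which trims precursor ends, had 3, 5 and 4 of 15 genes higher and 0, 1 and 1 lower. The other snoRNP genes had 1, 1 and 3 of 12 higher and 1, 1 and 0 lower, and the other RNA polymerase I genes 1, 2 and 0 of 12 higher and 1, 1 and 0 lower.

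NPM3, a relative of NPM1, was among the genes of these lists with the lowest adjusted p. NPM3 at nose was 24.03, 26.4 and 24.3 CPM in DIK and 3.84, 3.29 and 1.496 CPM in WT. NPM3 at mouth was 24.7, 34.01 and 34.7 CPM in DIK and 8.21, 6.45 and 3.41 CPM in WT. NPM3 at scrotum was 57.8, 59.7 and 48.1 CPM in DIK and 2.098, 3.87 and 2.26 CPM in WT. The groups were far apart at each label. For NPM3 the log2 difference was 3.34 ± 0.39 (SE, adjusted p = 3.94e-06) at nose, 2.34 ± 0.31 (SE, adjusted p = 1.35e-05) at mouth and 4.27 ± 0.36 (SE, adjusted p = 6.34e-08) at scrotum, and for NPM3 the scrotum difference exceeded the mouth difference in the interaction test (adjusted p = 0.00921).

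EIF6, which keeps the large subunit from joining too early, was higher by 3.71, 3.22 and 2.22 at nose, mouth and scrotum. EIF6 at scrotum was 639, 800.4 and 788 CPM in DIK and 29.8, 411 and 35.1 CPM in WT, with WT scrotum replicate 2, the library rich in keratinocyte markers, far above the other WT libraries. NOL6, a small subunit factor, was higher by 2.41, 1.28 and 1.66, and PPAN, a large subunit factor, by 1.09, 1.28 and 1.23. NOP10, a partner of DKC1 in the box H/ACA particle, was higher by 1.14, 0.85 and 1.16, with all calls past the threshold. LLPH and RBM19 were likewise called at all 3 labels, by 0.93, 0.94 and 1.19 and by 0.996, 1.17 and 1.32. POLR1D, a small subunit of RNA polymerases I and III, was higher at nose by 2.25 and at mouth by 1.15, and differed by 0.25 at scrotum (adjusted p = 0.59).

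**Figure D5:**
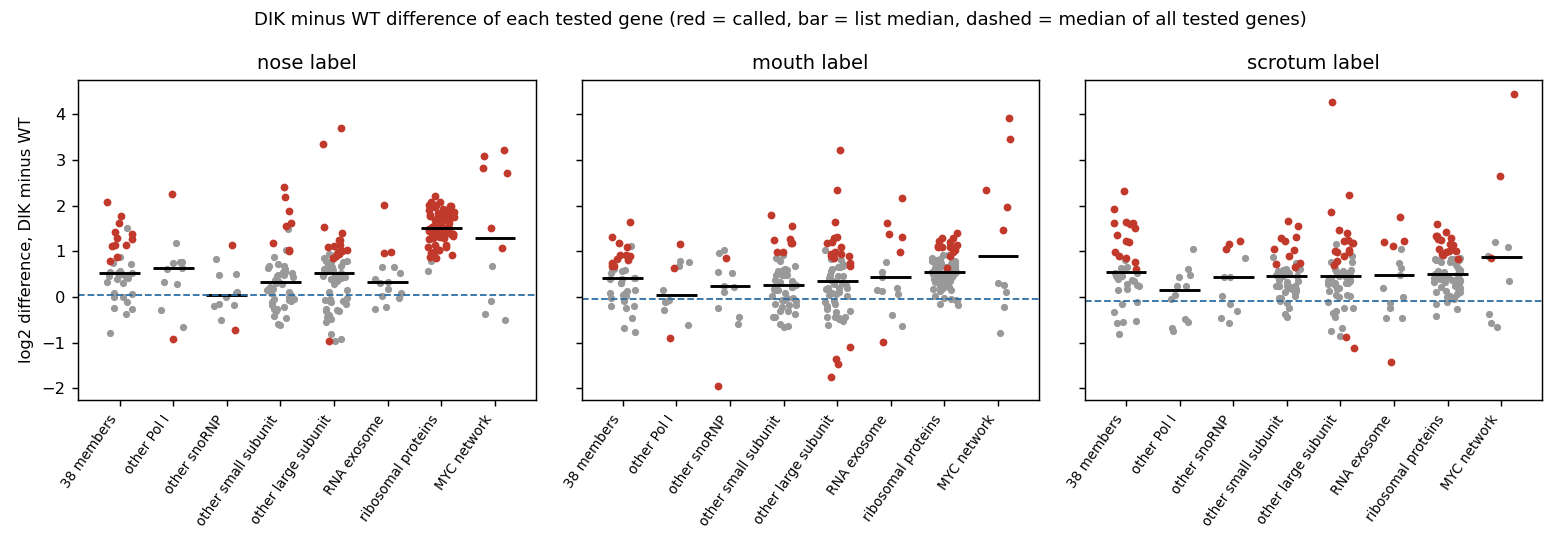
Fitted log2 difference of DIK minus WT of each tested gene in 8 lists of the pathway, by tissue label; red points passed the edgeR test, a bar marks the median of a list and the dashed line the median of all genes. Of 77 ribosomal proteins, 75 were called higher at nose (median 1.51), 14 at mouth (median 0.54) and 17 at scrotum (median 0.51), the last count being 64 without WT scrotum replicate 2. Among all genes, 21.9%, 22.7% and 19.4% were called higher at nose, mouth and scrotum.

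The ribosomal proteins themselves, the cargo of the pathway, were called higher in 75 of 77 genes at nose, 14 at mouth and 17 at scrotum, with 0 lower at each. Among all genes, 21.9%, 22.7% and 19.4% were called higher at these labels, and 20.1%, 24.3% and 24% lower. The counts called higher at mouth and scrotum thus lay near the shares of all genes. The summed level of the ribosomal proteins was 56055 to 72123 CPM in DIK nose against 19731 to 26044 CPM in WT nose. At mouth it was 52672 to 62900 CPM in DIK and 40756 to 45352 CPM in WT, and at scrotum 55142 to 63527 CPM in DIK against 30132, 71166 and 29202 CPM in WT. The DIK ranges of the 3 labels overlapped, those of WT nose and WT mouth did not, and WT scrotum replicate 2 lay above the 3 DIK scrotum libraries. Without that library 64 of the 77 genes were called at scrotum and 35 at mouth. With library size alone as the scaling 4 were called at mouth and 5 at scrotum. Interaction terms called only RPS23 (mouth against nose) and RPLP2 (scrotum against nose) of the 77 genes. RPS21 was higher by 2.201, 1.29 and 1.34 at nose, mouth and scrotum, and RPL27 by 1.89, 1.22 and 1.43. Ribosomal proteins have many near-identical copies, so single genes are uncertain.

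Of the MYC network, the transcription factor family that binds many genes of the pathway, 6 of 10 tested genes were called higher at nose, 5 at mouth and 3 at scrotum, with 0 lower. Among all genes, 21.9%, 22.7% and 19.4% were called higher at these labels, and 20.1%, 24.3% and 24% lower. MYC at nose was 42.7, 33.1 and 70.4 CPM in DIK and 28.8, 20.4 and 7.69 CPM in WT. MYC at mouth was 31.01, 37.7 and 25.6 CPM in DIK and 15.9, 11.5 and 6.295 CPM in WT. MYC at scrotum was 43.3, 39.3 and 33.8 CPM in DIK and 7.97, 33.6 and 11.8 CPM in WT. DIK lay above WT at each label, at scrotum by a narrow margin over WT replicate 2. For MYC the log2 difference was 1.51 ± 0.52 (SE, adjusted p = 0.0263) at nose and 1.46 ± 0.49 (SE, adjusted p = 0.0212) at mouth, and 1.098 ± 0.49 (SE, adjusted p = 0.0775) at scrotum, where it was 1.95 and passed the test without WT scrotum replicate 2. The MYC antagonists MXD1 and MXI1 were also higher: MXD1 by 3.21, 2.35 and 4.43, and MXI1 by 2.83 at nose and 1.97 at mouth, with 0.8998 at scrotum (adjusted p = 0.0633). MYCL was higher by 3.08, 3.46 and 2.64.

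Other lists also differed between DIK and WT, some higher and some lower in DIK. Among all genes, 21.9%, 22.7% and 19.4% were called higher at nose, mouth and scrotum, and 20.1%, 24.3% and 24% lower. All 23 proliferation genes were called higher at each label, with medians of 4.70 at nose, 3.61 at mouth and 3.03 at scrotum. Their summed level was 276 to 552 CPM in the DIK libraries and 15.4 to 90.7 CPM in the WT libraries. Keratinocyte markers were called higher in 10, 12 and 8 of 13 genes at nose, mouth and scrotum. Skeletal muscle genes were called lower in 20, 17 and 20 of 20 genes, and their summed level was 7.28 to 953 CPM in DIK libraries against 3931 to 367354 CPM in WT libraries. Smooth muscle markers were called lower in 8, 10 and 8 of 10 genes at nose, mouth and scrotum. They summed to 1206 to 6037 CPM in the DIK libraries and 6937 to 176611 CPM in the WT libraries, with WT mouth the highest at 98430 CPM or more. Fibroblast markers were called lower in 8, 9 and 8 of 10 genes, with sums of 813 to 3808 CPM in the DIK libraries and 5082 to 32782 CPM in the WT libraries. The part of these in the results for the 38 genes was not tested.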

How the data were processed

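Per the labels' protocols, pig tissue was kept in RNAlater, RNA was taken with TRIzol, and the VAHTS mRNA-seq V3 kit gave the libraries. The submitters' processing notes name fastp, HISAT2 2.1.0 and HTSeq 0.11.2. The deposited table holds the authors' raw read counts per gene and library, with no normalization. Genome build, annotation, strand setting and the handling of multi-mapping reads are not stated there. Whether the reads of a gene and of its antisense partner were told apart is thus not known.

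The 38 genes and the other gene lists were chosen by known function with earlier results of these data known. The text names all 38, MYC and its network, and up to 4 genes per other pathway list with the lowest adjusted p in the averaged contrast. RPS23, RPLP2 and the other genes with an interaction past the threshold were named after their values were seen. All 38 symbols were found in a RefSeq table of Sscrofa11.1, used for names only.

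Counts were TMM-scaled and tested in R 4.3.3 with the robust quasi-likelihood test of edgeR 4.0.16. The fit had a mean for each of 6 groups over all 18 libraries. Its default filter (minimum count 10, minimum total 15) left 12895 genes, which held 99.1% or more of the counts in every library. The common coefficient of biological variation came to 36.1%. The Benjamini-Hochberg method adjusted p over all genes within a contrast, and genes were called under 0.05. SE is the log2 difference over the square root of F. Total counts of 418665 to 5041470 set the precision, and floors of 3 counts cover counting error only. The steps were tested on simulated data. Alternatives were other scalings and filters, DESeq2 1.42.0, limma-voom (limma 3.58.1) with quality weights, a fit of the compared groups alone, a block for replicate number, an adjusted p under 0.01, at least a 2-fold change, and libraries left out singly or together. The last setting was in part chosen after seeing the data. Library pairs were checked for duplicates only within a group, where the chi-square of counts per degree of freedom was 6.90 or more. Pairs between groups were not checked.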

Additional observations from a re-analysis of the deposited data

Results flagged for a closer look

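In the interaction test of edgeR, the tumour-to-normal difference of 13 gene and label pairs of the wider pathway varied between tissue labels at an adjusted p under 0.05, and none of them concerned the 38 genes. Of the 149 other pathway genes, 3 passed for mouth against nose and 3 for scrotum against mouth (2.01% each). For scrotum against nose, 1 passed as larger and 1 as smaller (0.671% each). The rest were ribosomal proteins or MYC network genes. These shares lay below the 8.6% (mouth against nose), 13.1% (scrotum against mouth) and 7.65% (scrotum against nose) of all genes. The values below are log2 differences of the DIK minus WT contrast between the first label named and the second. Groups of 3 libraries are too small for a search for outlying samples.

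ESF1, a small subunit factor, was -2.63 for mouth against nose: DIK minus WT was 2.20 at nose and -0.44 at mouth. PUM3, a large subunit factor, was -1.76 for the same pair, from 1.15 at nose and -0.62 at mouth. The ribosomal protein gene RPS23 was -1.63, from 1.98 and 0.35. ZNHIT6, a snoRNP assembly factor, was -1.77 for mouth against nose and 1.79 for scrotum against mouth, since DIK minus WT was -1.94 at mouth, -0.17 at nose and -0.15 at scrotum. For scrotum against nose, POLR1D was -2.002, with 2.25 at nose and 0.25 at scrotum. RUVBL1, an ATPase used in snoRNP assembly, was 1.38 for that pair, from -0.16 at nose and 1.23 at scrotum. RPLP2 of the ribosomal stalk was -1.29, from 0.87 and -0.42. MXI1 was -1.93, from 2.83 and 0.90.

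For scrotum against mouth, NPM3 was 1.93, with 4.27 at scrotum and 2.34 at mouth. ZNF622, a late large subunit factor, was 1.25, from 0.78 and -0.47. MXD1 was 2.09, from 4.43 and 2.35. MXD3, of the same family of MYC antagonists, was -2.72, from 1.19 and 3.92. The posterior HOX sums given above bear on every comparison of the mouth and scrotum labels, and their part in these differences was not tested.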

How the results depend on the processing

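The number of the 38 genes called in DIK minus WT was 12 at mouth, and became 7 with upper-quartile scaling, 6 with library size alone, 7 with no filter on low counts, 7 at an adjusted p under 0.01 and 4 at a 2-fold change. The count averaged over the 3 labels was 22, and 9 at a 2-fold change. Leaving out 1 library gave 9 to 13 calls at nose, 7 to 12 at mouth, 10 to 17 at scrotum and 21 to 24 in the average. The median difference at mouth was 0.16 with library size alone, and at scrotum 0.78 without WT nose replicate 1 and WT scrotum replicate 2, and also without these and WT mouth replicate 1. Over single libraries the medians ran from 0.49 to 0.67 at nose, 0.30 to 0.60 at mouth and 0.39 to 0.71 at scrotum. Library size alone moved the median of all genes by -0.25 at mouth and -0.11 at scrotum, and upper-quartile scaling by -0.11 at mouth. None of the 61 called differences of the 38 genes changed sign, over 1098 values without 1 library, of which 74 lost the call, and 767 other values, of which 104 did.

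Interaction calls, 0 in each pair, were 2 for mouth against nose with limma-voom. They were 1 with upper-quartile scaling and with at least 10 CPM in 3 libraries. They were also 1 without WT nose replicate 1, WT mouth replicate 1 and WT scrotum replicate 2 together (the 3 WT libraries). For scrotum against nose they were 2 with DESeq2, 2 with limma-voom, 1 without WT nose replicate 1 and WT scrotum replicate 2, and 3 without the 3 WT libraries. For scrotum against mouth they were 1 with median-of-ratios scaling, 1 with upper-quartile scaling, 2 with the 10 CPM filter, 2 with DESeq2, 4 with limma-voom, and 3 and 4 without the 2 and the 3 WT libraries. Leaving out 1 library gave 0 to 1, 0 to 1 and 0 to 2.

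WT mouth against WT nose, with 1 call, had 2 with upper-quartile scaling, 4 with library size alone, 2 with the 10 CPM filter, 6 with limma-voom, 0 at an adjusted p under 0.01, 0 at a 2-fold change, 3 without the 3 WT libraries and 0 to 3 without 1 library. WT scrotum against WT nose had 1 with the 10 CPM filter and 0 to 1 without 1 library. WT scrotum against WT mouth, with 2, had 7 with library size alone, 0 with no filter, with only the groups compared, at an adjusted p under 0.01 and at a 2-fold change, and 0 to 3 without 1 library. DIK mouth against DIK nose had 1 with limma-voom and 0 to 0 without 1 library. DIK scrotum against DIK nose, with 1, had 0 with library size alone, 5 with limma-voom, 0 at an adjusted p under 0.01 and 0 to 1 without 1 library. DIK scrotum against DIK mouth had 2 with limma-voom and 0 to 0 without 1 library. The causes of these moves were not tested.

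Signs changed for values that had not passed the test. NOP58 at nose, 0.0036, was -0.058 with median-of-ratios scaling, -0.072 with upper-quartile scaling, -0.092 with library size alone, -0.0025 with no filter, -0.054 with the 10 CPM filter, -0.030 with DESeq2, and -0.039 to 0.055 without 1 library; at mouth it was -0.090 with library size alone. RCL1 at nose was 0.029 and 0.028 without the 2 and the 3 WT libraries, and -0.44 to 0.041 without 1 library. NCL at nose was -2.7e-05 with upper-quartile scaling, -0.026 with library size alone and -0.045 to 0.14 without 1 library. NCL at mouth was -0.096 with library size alone, -0.0057 without the 3 WT libraries and -0.0063 to 0.24 without 1 library.

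Deviations of same-numbered DIK and WT libraries from their group means correlated between -0.048 and 0.089. Those of differently numbered libraries correlated between -0.097 and 0.070. With group means of 3 libraries, such values cannot exclude a pairing by replicate number. With the replicate number as a block, 12, 12 and 15 of the 38 genes were called at nose, mouth and scrotum and 23 in the average. Depth limits the low genes, since 3 counts were worth 5.76 CPM in WT nose replicate 1.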
